A study of Homo sapiens with 6 samples.

Results

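The genes described here are those of glycolysis and of the response to low oxygen, chosen by name: 22 genes of glycolysis (15 enzymes, 5 kinases that regulate the route or its exit into the mitochondria and 2 glucose transporters) and 15 of oxygen sensing and its targets. Every probe set annotated to exactly 1 of them was taken, which gave 93 of 54675 probe sets and 36 of the 37 genes; no probe set was annotated to CA9, whose expression is not analysed here. The array names 19775 genes in all. The samples were Capan-1 cells, an established human pancreatic carcinoma line. Of these, 3 carried a full-length p16INK4a cDNA in the vector pRC/CMV, driven by the CMV promoter, and 3 were mock-transfected; the medium held G418 (1 mg/ml) and hygromycin (0.1 mg/ml). Samples are numbered V1 to V3 within each group, with no explanation of the number, of how many clones a sample holds or of whether cultures were separate. Each p-value here therefore reflects just the spread among these 6 samples, and part of that spread may be technical. All cultures were grown in medium with 15% serum under 5% CO2, per the labels' protocols, and no low-oxygen treatment is described: the comparison, 3 p16 against 3 mock samples, asks how expression differs with p16.

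Cells sense oxygen through prolyl hydroxylases, the EGLN enzymes, which mark the alpha subunits of the hypoxia-inducible factors, HIF1A and EPAS1, for destruction by way of VHL. When oxygen falls the alpha subunits are spared, pair with ARNT and switch on genes for glucose uptake, glycolysis, acid balance and vessel growth. Much of this control acts on protein stability and not on the level of mRNA, and only mRNA was measured here. Pancreatic carcinomas are known as poorly perfused tumours with high glycolysis.

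In these bulk samples fewer cells of a type and less RNA per cell cannot be told apart. Levels are the deposited log2 expression values, in which 1 unit is a doubling and a level under 4 is taken as the floor of unexpressed probe sets. A gene is given by its brightest tested probe set unless another is named, a change is the p16 mean minus the mock mean, and a gene is called where limma's Benjamini-Hochberg adjusted p over all tested probe sets is under 0.05. The groups differed across the array: 42.0% of 11658 genes tested were called, 19.5% higher and 22.5% lower in p16 cells. CDKN2A, which encodes p16, read 6.01 in mock and 12.60 in p16 cells on its brightest probe set and 2.03 and 11.92 on the other tested one. Its chromosomal neighbour MTAP, which the cDNA does not carry, read 2.07 and 11.05, so what follows cannot be told apart from other differences between the transfected lines. Of 6 markers of duct epithelium, all on the array and all expressed, 4 were called lower, with a mean level of 14.18 to 14.50 in mock and 12.33 to 12.56 in p16 samples. Of 6 fibroblast markers the mean level was 3.48 to 3.58 in mock and 4.77 to 5.09 in p16 samples. LUM was called higher, on a probe set under 4 in every mock sample that read 8.53, 8.87 and 9.37 in p16 V1 to V3. It passed the filter on low values through its p16 samples alone, so its call is partly fixed by that filter. The other LUM probe set lay under 4 in every sample, as did COL1A2, COL3A1 and DCN. COL1A1 changed by -0.13 on its brightest probe set, without a call, while dimmer ones were called higher, by 1.84 and 1.31. PDGFRB, not tested, lay under 4 in every mock sample and read 4.31, 5.65 and 3.71 in p16 V1 to V3. All 4 leukocyte and 4 endothelial markers on the array lay under 4 throughout. The V1 samples of both groups stood apart from V2 and V3. GAPDH has control probe sets at the 5′ end and the 3′ end of its transcript, a usual sign of RNA integrity. The 5′ level minus the 3′ level was -1.10 in mock V1 and -0.85 in p16 V1, and between -0.43 and -0.18 in the other 4 samples. The part of these differences in the results below was not tested.

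Among the members, 35 of 36 genes passed the filter on low values, 5 were called higher, 4 lower and 26 not called. The glycolysis members contributed 3 called genes of 21 tested, 14.3%, against the 42.0% of all genes tested, and the oxygen sensing and target genes 6 of 14, or 42.9%. The median change was 0.20 over the glycolysis members, 0.0029 over the others and -0.03 over all genes tested. Without mock V3, p16 V2 or p16 V3 the glycolysis count was 1, PFKFB3, and without both V1 samples it was 9. When the V number entered as a replicate block, 15 members were called higher and 8 lower, 10 and 4 of them in glycolysis, against 67.9% of all genes, 32.4% higher and 35.5% lower. By single probe sets, 18 of 66 tested (27.3%) were called, 9 in each direction, against 37.2% on the array, and with the block 46 of 66, against 63.5%.

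**Figure D1:**
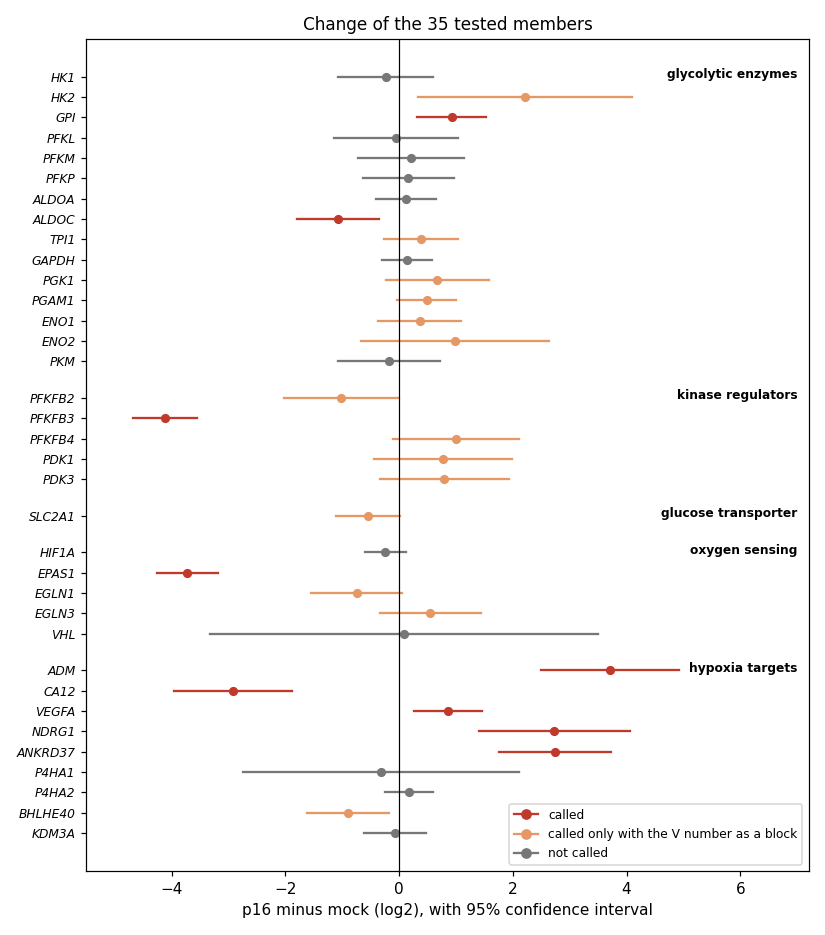
Change of each of the 35 tested members, p16 minus mock on the log2 scale, as points with 95% confidence intervals from limma (n = 3 per group), ordered by role. The 9 called members are red, from PFKFB3 at -4.12 to ADM at 3.71, and most glycolytic enzymes lie within 1 unit of 0.

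In the oxygen-sensing machinery EPAS1 fell, and the other 4 genes had no call on their brightest probe sets. HIF1A, the broadly expressed alpha subunit, read 15.13, 15.17 and 15.13 in mock V1 to V3 and 14.99, 14.79 and 14.91 in p16 V1 to V3. The groups did not overlap, but the change of -0.25 (SE 0.15, 95% confidence interval -0.61 to 0.12) was not called (limma adjusted p = 0.248, and 0.129 with the block). EPAS1, the alpha subunit known from endothelium and renal carcinoma, read 11.92, 11.47 and 11.74 in mock and 8.28, 7.83 and 7.83 in p16 samples. Every p16 sample lay more than 3 units under every mock sample, a 13.2-fold lower level (change -3.73, SE 0.22, adjusted p = 0.000102). Its other 2 probe sets lay under 4 in every sample.

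The hydroxylases and VHL gave no call on their brightest probe sets. EGLN1, the main hydroxylase under normal oxygen, averaged 13.02 ± 0.47 (SD) in the 3 mock and 12.27 ± 0.40 in the 3 p16 samples. It was lower in p16 cells for each V number, by -0.82, -0.66 and -0.75, a difference not called (limma adjusted p = 0.128) except with the block (0.0046) and without both V1 samples (0.0217). EGLN3, the hydroxylase that is itself induced by hypoxia, has 2 probe sets of nearly equal brightness that point in opposite directions. One changed by 0.55 (adjusted p = 0.289, and 0.0185 with the block) and the other by -0.81 (adjusted p = 0.0368, and 0.00763 with the block), so no direction is given for the gene. VHL, the recognition subunit of the ubiquitin ligase, lay under 4 in the V1 sample of each group, at 3.79 in mock and 3.14 in p16 cells, and between 6.37 and 7.40 in the other 4 samples. Its change of 0.08 had an SE of 1.38 (adjusted p = 0.972), which leaves a wide interval of -3.33 to 3.49.

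Among the hypoxia targets other than glycolytic genes, 4 of 9 rose and 1 fell, and 4 had no call; of all genes tested 19.5% rose and 22.5% fell. ADM, which encodes the vasodilator peptide adrenomedullin, read 10.32, 8.49 and 9.37 in mock V1 to V3 and 13.49, 12.79 and 13.03 in p16 V1 to V3. The lowest p16 sample lay above the highest mock sample, and the mean was 13.1-fold higher (change 3.71, SE 0.49, adjusted p = 0.00252). NDRG1, a stress-responsive gene of differentiation, read 9.82, 8.38 and 8.67 in mock and 12.58, 11.27 and 11.22 in p16 cells. Its V1 sample was the highest of each group, while the differences between same-numbered samples were alike at 2.76, 2.89 and 2.55 (6.64-fold, change 2.73, SE 0.54, adjusted p = 0.011). ANKRD37, an ankyrin repeat gene and known HIF target, read 5.95, 5.09 and 6.32 in mock and 8.01, 8.71 and 8.87 in p16 cells. Here V1 was the lowest of the p16 samples, and the groups again did not overlap (6.69-fold, change 2.74, SE 0.40, adjusted p = 0.00354).

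VEGFA, the angiogenic growth factor, rose less. Its brightest probe set read 9.38, 9.93 and 10.17 in mock and 10.57, 10.73 and 10.77 in p16 cells. Mock V1 was the lowest sample, the groups were 0.40 units apart, less than the 0.78 units that the mock samples spanned, and the change was 0.86 (1.82-fold, SE 0.24, adjusted p = 0.0376). The other 3 probe sets of VEGFA changed by 0.83 to 0.96; they were not called, but were with the block, and 2 of them also without both V1 samples. The VEGFA call was lost without mock V2 (adjusted p = 0.0828) and without p16 V1, V2 or V3 (adjusted p = 0.0604, 0.111 and 0.118).

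CA12, a membrane carbonic anhydrase that helps control pH outside the cell, was the target that fell, on all 5 of its tested probe sets. The brightest, of a type whose probes can bind related transcripts, read 8.78, 8.78 and 8.82 in mock and 6.27, 6.42 and 4.92 in p16 cells. Mock samples were within 0.05 of each other, and p16 samples spread more widely, V3 lowest, all below (7.60-fold lower, change -2.93, SE 0.42, adjusted p = 0.00342). A more specific probe set read 8.64, 8.58 and 8.95 in mock and 2.11, 2.26 and 2.09 in p16 cells. All p16 values there lie at the floor, so CA12 was at least 26.4-fold lower by this probe set. It passed the filter on low values through its mock samples alone, as did other dimmer CA12 probe sets, so its p-value is not given. The remaining 2 CA12 probe sets were under 4 in every sample.

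The other 4 targets had no call. BHLHE40, a transcriptional repressor of the circadian and hypoxia programmes, averaged 12.83 ± 0.48 (SD) in the 3 mock and 11.94 ± 0.23 in the 3 p16 samples. The groups did not overlap, and the change of -0.90 was not called (limma adjusted p = 0.0581, 0.00613 with the block and 0.0091 without both V1 samples). P4HA1 and P4HA2, catalytic subunits of the collagen prolyl hydroxylase, changed by -0.31 (SE 0.98) and 0.17 (SE 0.17). KDM3A, a histone demethylase induced by HIF, changed by -0.07 (SE 0.22, 95% confidence interval -0.62 to 0.47). None of these 3 was called in either fit on its brightest probe set. A dimmer P4HA2 probe set changed by 0.73 (limma adjusted p = 0.101, 0.00767 with the block and 0.0388 without both V1 samples). P4HA1 had the widest spread within groups of the 3 genes. It read 13.22, 10.45 and 10.43 in mock and 12.47, 10.43 and 10.26 in p16 V1 to V3. The V1 samples thus stood more than 2 units above the others in both groups.

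**Figure D2:**
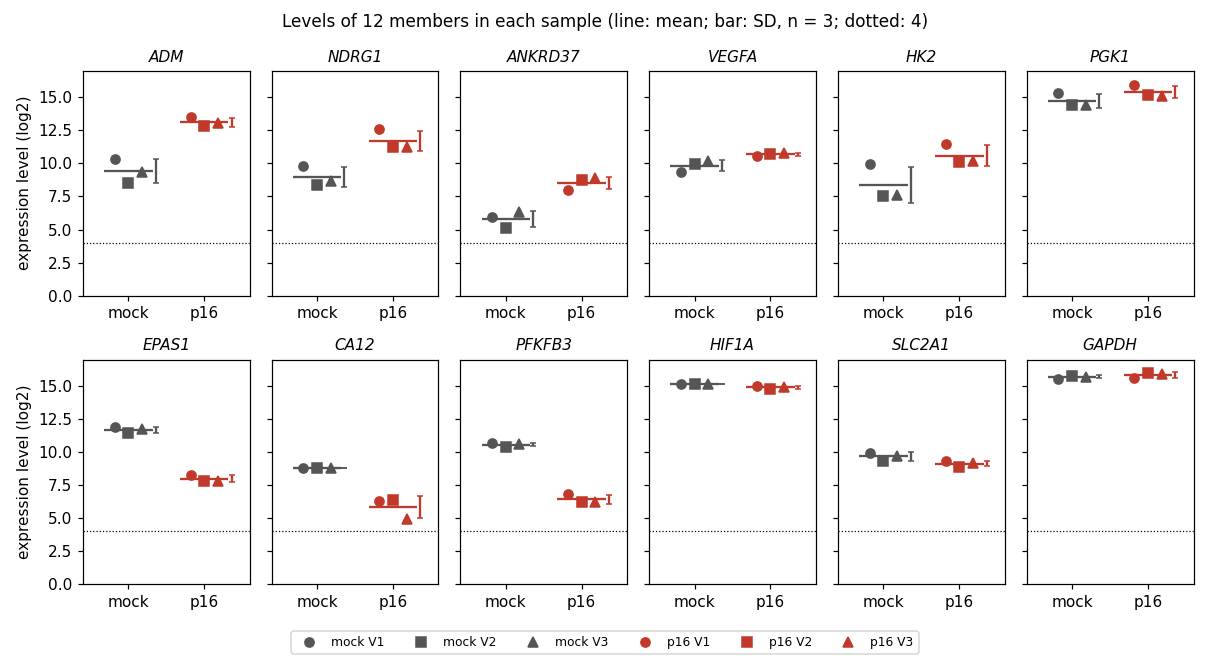
Levels of 12 members in each sample on the log2 scale, mock in grey and p16 in red, with V1 as circles, V2 as squares and V3 as triangles; horizontal lines are means, bars SD (n = 3) and the dotted line the floor of 4. ADM, NDRG1 and ANKRD37 are higher and EPAS1, CA12 and PFKFB3 lower in every p16 sample, while HIF1A and GAPDH differ little.

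HIF binds DNA at a short core, and the promoters of called members with a change of at least 2 and a single start in the reference, together with that of PGK1, a glycolytic gene long used to study HIF, show where that core occurs. The 250 bases before the start of each gene are given 5′ to 3′ on the gene's strand, from RefSeq on GRCh38.p14, with every ACGTG or GCGTG on either strand in capitals (CACGT and CACGC are their complements, and in CACGTG the 2 strands' matches overlap).
ADM, chr11:10304823-10305072, plus strand: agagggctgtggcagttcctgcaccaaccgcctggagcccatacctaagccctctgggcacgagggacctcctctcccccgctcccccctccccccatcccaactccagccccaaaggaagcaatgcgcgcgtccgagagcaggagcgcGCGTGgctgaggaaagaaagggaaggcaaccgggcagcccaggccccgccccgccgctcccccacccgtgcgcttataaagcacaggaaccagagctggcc
ANKRD37, chr4:185396591-185396840, plus strand: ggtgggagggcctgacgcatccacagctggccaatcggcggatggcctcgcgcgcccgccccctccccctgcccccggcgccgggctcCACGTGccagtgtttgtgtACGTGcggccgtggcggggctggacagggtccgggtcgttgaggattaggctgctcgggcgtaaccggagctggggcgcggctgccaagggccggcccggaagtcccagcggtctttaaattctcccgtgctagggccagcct
PGK1, chrX:78103998-78104247, plus strand: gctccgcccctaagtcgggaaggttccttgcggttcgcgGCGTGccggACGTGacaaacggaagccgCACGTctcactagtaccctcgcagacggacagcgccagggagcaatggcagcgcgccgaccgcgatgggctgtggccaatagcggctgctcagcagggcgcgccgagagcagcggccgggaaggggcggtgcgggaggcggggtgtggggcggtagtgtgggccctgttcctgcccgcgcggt
EPAS1, chr2:46297157-46297406, plus strand: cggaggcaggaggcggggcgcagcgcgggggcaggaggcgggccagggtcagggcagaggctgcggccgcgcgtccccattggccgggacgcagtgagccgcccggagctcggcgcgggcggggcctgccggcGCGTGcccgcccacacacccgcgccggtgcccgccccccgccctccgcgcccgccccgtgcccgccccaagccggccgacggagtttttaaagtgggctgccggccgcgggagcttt
CA12, chr15:63381847-63382096, minus strand: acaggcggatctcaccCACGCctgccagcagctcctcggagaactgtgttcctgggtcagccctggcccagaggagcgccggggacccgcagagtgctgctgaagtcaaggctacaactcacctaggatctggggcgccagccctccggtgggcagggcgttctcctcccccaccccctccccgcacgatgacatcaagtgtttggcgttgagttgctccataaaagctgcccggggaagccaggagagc

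ADM holds 1 match, a GCGTG beginning 101 bases before the start, and ANKRD37 holds 3, including the overlapping pair CACGTG 162 bases before it and an ACGTG at 143. PGK1 holds 3, at 211, 202 and 183 bases before the start. EPAS1 and CA12, which fell, hold 1 each, at 117 and 234 bases. PFKFB3, which also fell, is not shown because it has 2 start windows, with 1 match and 2 matches. NDRG1, which rose, is not shown because the reference held no window for it. Start windows were in the reference for 32 of the 37 genes, CA9 included, 55 windows in all, and 33 of these (60.0%) held at least 1 match, against 43.2% of all 35116 windows of the same length. A match is a string of letters in this window and says nothing of binding.

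Neither glucose transporter was called. SLC2A1, the common transporter GLUT1, read 9.94, 9.34 and 9.73 in mock and 9.31, 8.90 and 9.17 in p16 V1 to V3. All p16 samples lay below all mock samples, by a mean of -0.54 (SE 0.23, 95% confidence interval -1.10 to 0.01), which was not called (limma adjusted p = 0.113, and 0.0131 with the block). The second SLC2A1 probe set lay near the floor, at 2.50 to 4.09. SLC2A3, the high-affinity transporter GLUT3, lay under 4 in every sample on all 3 probe sets and gives no fold.

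Of the 15 glycolytic enzymes 1 rose and 1 fell, 13 had no call, where 42.0% of all genes were called. Of the 15 changes 11 were positive, as were 48.7% of those of all genes. Hexokinases trap glucose in the cell as its phosphate. HK1, the constitutive form, averaged 12.36 ± 0.52 (SD) over 3 mock and 12.12 ± 0.37 over 3 p16 samples (adjusted p = 0.638). HK2, the inducible form common in tumours, read 9.93, 7.55 and 7.60 in mock and 11.47, 10.09 and 10.17 in p16 V1 to V3. Its groups did not overlap, yet mock V1 came within 0.16 units of p16 V2, and the change of 2.22 (4.64-fold, SE 0.76) was not called on this probe set (adjusted p = 0.0698, 0.00211 with the block, 0.00934 without mock V1 and 0.000624 without both V1 samples). The other 2 HK2 probe sets rose, by 1.88 (adjusted p = 0.00196) and 1.08 (adjusted p = 0.0178). HK2 is described with every sample because of these values, a choice made after they were seen.

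GPI, which turns glucose 6-phosphate into fructose 6-phosphate, was the enzyme that rose. It read 12.51, 13.13 and 12.91 in mock and 13.46, 14.02 and 13.84 in p16 cells, and same-numbered samples differed by 0.95, 0.89 and 0.93 (1.90-fold, SE 0.25, adjusted p = 0.0318). The 3 phosphofructokinase genes, PFKL, PFKM and PFKP, which set the pace of the route, changed by -0.06, 0.20 and 0.17, with SEs of 0.44, 0.38 and 0.32, and none was called in either fit. The 2 aldolases are given side by side. ALDOA, the muscle and general form, read 14.63 ± 0.28 and 14.75 ± 0.19 (adjusted p = 0.706), while ALDOC, the brain-type form, fell from 10.13 ± 0.40 to 9.05 ± 0.36 (2.11-fold lower, SE 0.29 on a change of -1.07, adjusted p = 0.034). The GPI call was lost without mock V1, mock V3, p16 V2 or p16 V3 (adjusted p of 0.0627, 0.0842, 0.104 and 0.103). That of ALDOC was lost without any one mock sample or p16 V2 or V3 (adjusted p from 0.0578 to 0.113).

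In the steps from triose phosphate to pyruvate TPI1, GAPDH, PGK1, PGAM1, ENO1 and ENO2 were higher in p16 cells for each V number and PKM was lower for each, without a call on the brightest probe sets. TPI1, triose phosphate isomerase, changed by 0.39 (SE 0.26), PGAM1, phosphoglycerate mutase, by 0.49 (SE 0.21), and ENO1, the general enolase, by 0.36 (SE 0.30). GAPDH, often used as a reference, read 15.55, 15.78 and 15.71 in mock and 15.59, 16.002 and 15.87 in p16 cells. Its groups overlapped, and the change of 0.14 (SE 0.18, 95% confidence interval -0.31 to 0.58) was not called in either fit (limma adjusted p = 0.605, and 0.335 with the block). PGK1, phosphoglycerate kinase, read 15.32, 14.43 and 14.42 in mock and 15.95, 15.17 and 15.06 in p16 V1 to V3. The V1 mock sample was above 2 of the p16 samples, but same-numbered samples differed by 0.64, 0.75 and 0.64 (1.59-fold, adjusted p = 0.21, 0.00608 with the block and 0.0129 without both V1 samples). Of the other 3 tested probe sets of PGK1 1 rose (change 0.89, adjusted p = 0.0219), and 2 were not called but were with the block and without both V1 samples.

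ENO2, the neuronal enolase and a known HIF target, read 10.43, 8.44 and 8.43 in mock and 10.93, 9.64 and 9.67 in p16 cells, in V1 to V3. V1 was the highest sample of each group, as in HK2, and the groups overlapped. The change was 0.98 (SE 0.67; limma adjusted p = 0.31, 0.0112 with the block, 0.0468 without mock V1 and 0.00282 without both V1 samples). TPI1, PGAM1 and ENO1 (adjusted p = 0.307, 0.128 and 0.391) were called with the block (0.0363, 0.0186 and 0.046), and PGAM1 also without both V1 samples (0.0448). PKM, the pyruvate kinase of most tissues, read 13.71 ± 0.56 and 13.54 ± 0.41 (SD, n = 3) and was called in neither fit, while its dimmer probe set changed by -0.81 (adjusted p = 0.0875, 0.00473 with the block and 0.0349 without both V1 samples). The array values do not tell the splice forms of PKM apart.

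**Figure D3:**
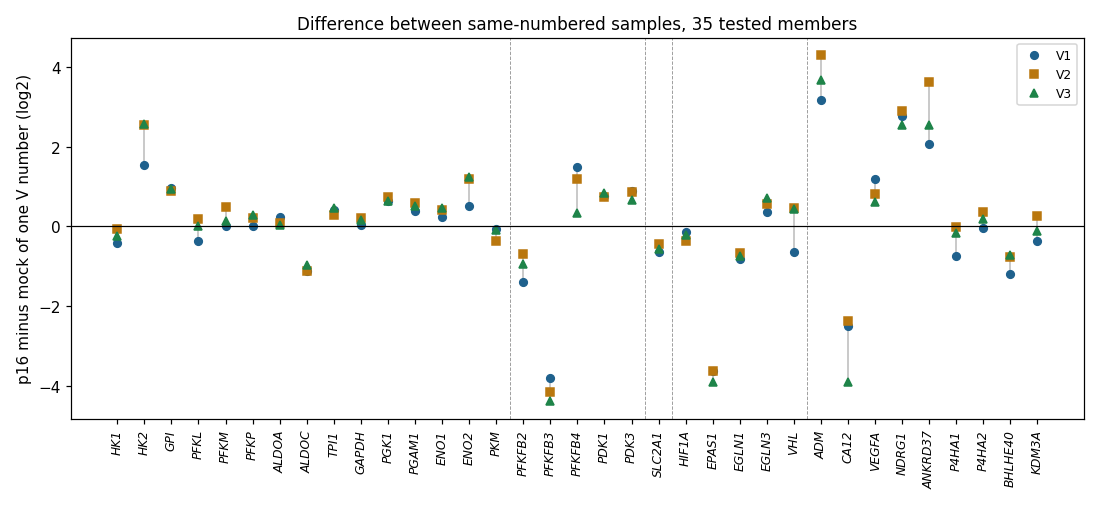
Difference between the p16 and the mock sample of the same V number (log2) for the 35 tested members, V1 as blue circles, V2 as orange squares and V3 as green triangles; dashed lines separate enzymes, kinase regulators, the glucose transporter, oxygen sensing and hypoxia targets. In 19 members all 3 differences are above 0 and in 12 all are below it. The 19 include PFKP, whose V1 difference rounds to 0.0.

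The bifunctional enzymes that make and degrade fructose 2,6-bisphosphate, a strong activator of phosphofructokinase, gave 1 call. PFKFB3, the form with the highest kinase activity and inducible by hypoxia, read 10.66, 10.41 and 10.63 in mock and 6.85, 6.26 and 6.24 in p16 cells. Every p16 sample lay more than 3 units below every mock sample, so PFKFB3 fell 17.4-fold (change -4.12, SE 0.23, adjusted p = 8.2e-05). PFKFB2, the heart-type form, changed by -1.01 (SE 0.41; adjusted p = 0.107, and 0.00721 with the block). PFKFB4 changed by 1.00, with same-numbered differences of 1.48, 1.18 and 0.33 (SE 0.45; adjusted p = 0.138, and 0.0255 with the block).

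PDK1 and PDK3, kinases that switch off pyruvate dehydrogenase and so hold carbon back from the mitochondria, were higher in p16 cells for each V number. PDK1 averaged 9.13 ± 0.70 (SD) in the 3 mock and 9.91 ± 0.69 in the 3 p16 samples, and same-numbered samples differed by 0.75, 0.75 and 0.83. PDK3 read 8.94 ± 0.63 and 9.74 ± 0.65, with differences of 0.88, 0.86 and 0.65. Neither change, 0.78 or 0.80, was called (limma adjusted p = 0.272 and 0.232), and both were with the block (0.00377 and 0.0045). Without both V1 samples PDK1 was called (0.0221) and PDK3 was not (0.0887). Of 5 PDK3 probe sets tested, 1 rose without the block, by 0.88 (adjusted p = 0.0117). That probe set lay near the floor, at 4.08 to 4.11 in mock and 4.74 to 5.20 in p16 samples. Others changed by 0.12 (with a V3 difference of -0.35) and 0.91 and were called in neither fit. A further PDK3 probe set changed by 0.93 and was called with the block (limma adjusted p = 0.00824).

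In all, 19 members were higher and 12 lower in p16 cells for each of the 3 V numbers, where 41.8% and 43.1% of all genes tested were. PFKP is counted among the 19, although its V1 samples both read 13.21 and their difference rounds to 0.0. Groups did not overlap in 15 of 35 members, against 56.4% of all genes tested: 8 lay higher in p16 cells (27.3% of all genes) and 7 lower (29.1%). Both shares of members, like the share of glycolysis members called, stand beside those of all genes as a description, and no test was made of the difference.

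Other genes of these routes, taken from lists of their pathways, went in both directions. Of 50 tested genes of glucose, pyruvate, pentose phosphate and glycogen metabolism 11 rose and 19 fell, the other 20 having no call, with a median change of -0.54 (60.0% called, against 42.0% of all genes). The number called was 19 without mock V3, 18 without p16 V2 and 19 without p16 V3. The lists were chosen with earlier results of these data known, so the share called is a description only. Calls of genes at the floor throughout a group are also partly fixed by the filter. Such genes are LDHB, SLC2A10, FBP1, HKDC1, PDK4 and PPP1R3C. LDHA, the lactate dehydrogenase subunit induced by HIF and named here after its value was seen, rose by 0.72 (adjusted p = 0.0465), while its partner LDHB lay at the floor in mock cells and rose at least 3031-fold. Genes that fell included SLC2A10, a glucose transporter of the same family as SLC2A1 (at least 250-fold lower), FBP1, the gluconeogenic enzyme that works against phosphofructokinase (at least 84.7-fold), and HKDC1, a further hexokinase (at least 49.2-fold). PDK4 was at least 70.0-fold lower, and pyruvate carboxylase, PC, changed by -2.32. PDPR, a regulator of the phosphatase that reactivates pyruvate dehydrogenase, changed by -2.35, and PDP1, a catalytic subunit of that phosphatase, rose by 1.82. Of 8 pentose phosphate genes tested, PRPS1, which makes phosphoribosyl pyrophosphate, rose by 1.59 and PGLS, the lactonase, changed by -1.42 (adjusted p = 0.0181). In glycogen metabolism PPP1R3C and PPP1R3B, which target a phosphatase to glycogen, were at least 72.1-fold lower and changed by -4.14, PHKB, a phosphorylase kinase subunit, changed by -2.88 and the glycogenin GYG2 by -1.94.

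Of 14 further genes of HIF signalling 2 rose and 4 fell, 42.9% called, against 42.0% of all genes tested. The coactivator EP300 changed by -2.94 (adjusted p = 0.000563), and ARNT2, a partner of the alpha subunits, was at least 2.22-fold lower. ELOC, the elongin subunit that works with VHL, rose by 1.73, and SIAH2, a ubiquitin ligase that acts on EGLN enzymes, by 1.11. Of 34 further hypoxia targets 14 rose and 8 fell, the other 12 having no call, with a median change of 0.61. Of all genes tested 19.5% rose and 22.5% fell. Of all 48 further oxygen-response genes 58.3% were called, against 42.0% of all genes tested. These lists too were chosen with earlier results of these data known, so the share is a description only. Calls of genes at the floor throughout a group are partly fixed by the filter. IGFBP3, an insulin-like growth factor binding protein, BNIP3, a mitochondrial gene of autophagy, and STC2, a secreted glycoprotein, lay at the floor in mock cells and were at least 915-fold, 114-fold and 34.1-fold higher. The collagen-modifying oxidase LOXL2 rose by 5.03 units. These 4 had the largest changes of the called targets. Among the 8 that fell were ERRFI1, with a change of -3.99, and ANGPTL4, at least 7.34-fold lower, both named after their values were seen.

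Many members carried the difference between V1 and the other samples. Over the 66 tested probe sets of members, the V1 level minus the mean of V2 and V3 ran from -3.15 to 2.78 in mock and from -3.97 to 2.13 in p16 samples. It had the same sign in both groups for 58 of the 66, against 80.4% of all tested probe sets. Across the 66 it correlated between groups (Pearson's r 0.92, Spearman's rho 0.90), against a Pearson's r of 0.81 over all tested probe sets. These values are a description over probe sets of the same 6 arrays. Within 1 gene the shift could go both ways: in mock samples a probe set of PGK1 was 2.29 higher in V1 and another 1.14 lower, and ENO1 had one that was 0.74 higher and one that was 3.15 lower. Without both V1 samples, 11 members were called higher and 7 lower, 6 and 3 of them in glycolysis, against 58.9% of all genes tested, and all 9 members called with 6 samples were among them.

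**Figure D4:**
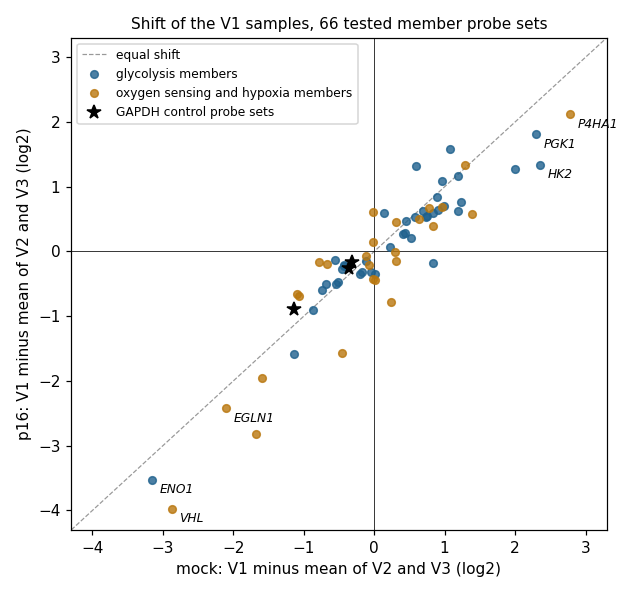
Level of the V1 sample minus the mean of V2 and V3 (log2) in mock samples (x) and in p16 samples (y) for the 66 tested probe sets of members, glycolysis in blue and oxygen sensing and hypoxia targets in orange, with the 3 GAPDH control probe sets as stars and a dashed line for equal shifts. Points follow the line from a VHL and an ENO1 probe set at the lower left to PGK1, HK2 and P4HA1 at the upper right.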

How the data were processed

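RNA of each of the 6 samples was hybridised to an Affymetrix array of 54675 probe sets. The authors deposited log2 values made with GCRMA, per the labels, which subtracts background and normalizes between arrays; its version is not given in the sources used here, and it sets unexpressed probe sets to a narrow floor. The number of arrays limits the precision. Of the probe sets, 41091 were annotated to 1 gene and 1801 to several; no gene was named from the latter, and 62 control probe sets were left out. Probe sets at 4 or more in at least 3 samples (24406) were fitted with limma 3.58.1 (R 4.3.3; lmFit, eBayes, two-sided, Benjamini-Hochberg over all of them). A fold against a group at the floor was taken against 4 and is a lower bound. A probe set at the floor throughout 1 group was tested only because the other group is high, so its call is partly fixed by the filter. Per-sample values were due for HIF1A, EPAS1, SLC2A1, VEGFA, CA9, PGK1, GAPDH and called members with separate groups and a change of at least 2; of each further list up to 4 called genes with the largest change are named. Members and lists were chosen with earlier results of these data known.

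The V numbers come from the sample labels. Deviations from the group means correlated between same-numbered samples at 0.81, 0.75 and 0.67, all above 0.1, so samples of 1 number were treated as pairs in a second limma fit, with the V number as replicate block. Between V2 and V3 the correlations were 0.51 and 0.42, also above 0.1, so the rule does not by itself establish pairing by number. Between V1 and the other numbers they ran from -0.74 to -0.62. The limma step was checked on simulated data with independent noise in each sample. Those data lack the shifts that same-numbered samples share here, so the check does not cover them. Promoter letters are RefSeq's.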

Additional observations from a re-analysis of the deposited data

How the results depend on the processing

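The alternatives were another or no filter on low values, quantile normalization, median centring, a floor at 4, eBayes with trend, the mean over a gene's probe sets, the V number as replicate block, leaving out each sample and, chosen after seeing the data, leaving out both V1 samples. No called member changed sign. Of the members not called, 10 did, without a call on the turned side, and the cause was not tested. Leaving out 1 sample, changes ranged from -0.45 to 0.067 for HK1, -0.33 to 0.35 for PFKL, -0.065 to 0.54 for PFKM, -0.0345 to 0.45 for PFKP, -0.032 to 0.24 for ALDOA and -0.42 to 0.13 for PKM. They ranged from -0.88 to 1.40 for VHL, -1.02 to 0.61 for P4HA1 and -0.27 to 0.029 for KDM3A. Without both V1 samples PFKL was at 0.091 and KDM3A at 0.0785. EGLN3 was at -0.55 under quantile normalization and at -0.13 as the mean of its opposed probe sets. EPAS1, PFKFB3, ADM, CA12, NDRG1 and ANKRD37 kept their calls under all of them; GPI, ALDOC and VEGFA did not, and the cause was not tested. The block raised the genes called from 4895 to 7916 and the glycolysis members called from 3 to 14, by construction removing the spread between numbers. Glycolysis members called were 1 with no filter, 6 with gene means and 9 without both V1 samples. Leaving out 1 sample gave 1 to 3 of them and 5 to 6 of the oxygen sensing and target members (6 with all samples). Of the further carbohydrate genes it gave 18 to 31 (30 with all samples). The lowest counts of glycolysis members and of carbohydrate genes came without mock V3, p16 V2 or p16 V3. The members' median change of 0.17 ranged from 0.15 to 0.35, the latter without mock V1. The number of arrays, 3 a group, and the floor limit what small or low changes can be read.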
